A study of Mus musculus with 5 samples.

Results

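Muscle keeps its ATP level steady through phosphotransfer. Creatine kinases move a phosphate between ATP and creatine, so that energy made in the mitochondria can be carried to the myofibrils and the ion pumps as phosphocreatine. Adenylate kinases and AMP deaminase handle the ADP and AMP that contraction leaves behind. In the failing or infarcted heart, loss of creatine and of creatine kinase activity is a classical observation. The 8 genes described here cover this shuttle: the creatine kinases Ckm, Ckmt2 and Ckb, the creatine transporter Slc6a8, the adenylate kinases Ak1, Ak3 and Ak4, and the AMP deaminase Ampd3. They were chosen by gene symbol, each symbol matched 1 row of the 41128 genes listed, and all 8 had a mean of at least 10 normalized reads, the level required for testing.

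The values come from sorted cardiomyocyte nuclei of FVB mice, 8 weeks old, whose left anterior descending coronary artery had been permanently ligated 7 days earlier; the labels name no genotype or drug. The border zone libraries, from muscle bordering the infarct, are those of mice 32, 34 and 40, and the remote libraries, from muscle of infarcted hearts away from the scar, are those of mice 40 and 43. Every group is thus from infarcted hearts, and mouse 40 alone gave a pair. Nuclei were sorted on PCM-1, a centrosomal protein that decorates the nuclei of cardiomyocytes, and the labels give an input of 500 pg for cDNA synthesis, so the values describe nuclear RNA and not the cell's protein or its cytoplasmic RNA. A lower value in a nucleus and a lower share of nuclei that hold the transcript cannot be told apart in these bulk libraries.

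The border zone libraries held 18725791 to 25014205 reads assigned to genes, and the remote libraries 11324539 and 13440421. The border zone libraries held fewer genes with at least 1 read, 17567 to 20634, against 22386 and 23033 in the remote libraries, although they were read more deeply. The 8 genes together took 4381, 4099 and 9406 reads in border zone mice 32, 34 and 40, against 7080 and 7966 reads in remote mice 40 and 43. As a share of all reads this was 0.0175%, 0.0195% and 0.0502% in the border zone (95% Clopper-Pearson intervals 0.0170 to 0.0180, 0.0189 to 0.0201 and 0.0492 to 0.0513), against 0.0527% and 0.0703% in remote muscle (0.0515 to 0.0539 and 0.0688 to 0.0719). The border zone library of mouse 40 thus lay nearer to the remote libraries than to the other border zone libraries in this share. These intervals cover counting error only, since amplified reads without molecular identifiers are not independent molecules. All cardiomyocyte markers (8 of 8) were present, with a summed level of 125055 to 158719 CPM (reads scaled by the library total) in the border zone and 119712 to 144705 in remote muscle.

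The shuttle genes were not all placed alike between the regions. With the authors' size factors, Ckm and Ampd3 stood above the remote level in every border zone library, Ak3 and Ak4 stood below it in every border zone library, and Ckmt2, Ckb, Slc6a8 and Ak1 overlapped between the regions. The groups therefore did not overlap for 4 of the 8 genes, against 39.2% of all 14989 tested genes. Ak3 alone of the 8 passed an adjusted p of 0.05 in the authors' deposited table, with a lower value in the border zone. Of all genes with an adjusted p there, 5.44% passed in either direction and 1.98% in that one; DESeq2 on the recovered reads gave the same shares of calls, 5.44% in all, and the same single member. By limma, with adjustment over all tested genes, 0 of the 8 passed (background 0%), and 2 of them, Ckm and Ak3, had an unadjusted p under 0.05, against 18.1% of all genes (10.2% higher and 7.87% lower in the border zone). edgeR on the recovered reads also called 0 of the 8, with Ckm and Ak3 again the members under an unadjusted p of 0.05, where 16.0% of all genes lay. The median log2 change of the 8 genes was -0.28, and that of all tested genes was -0.21, with 3 of 8 members above 0 against 45.0% of all genes. When libraries were scaled by their total reads instead, 2294 of all genes lay above 0 and 12695 below, so directions depend on the scaling and are given relative to the median gene where they do.

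**Figure D1:**
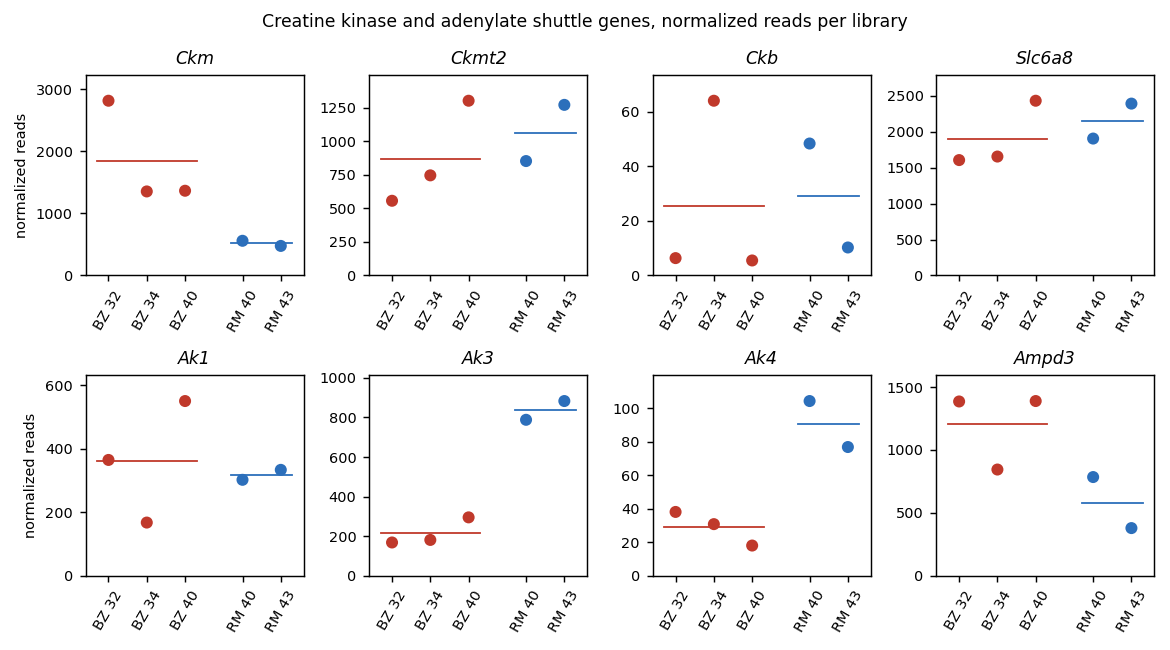
Normalized reads (authors' size factors, linear axis from 0) of the 8 genes in border zone (BZ, red) and remote (RM, blue) libraries, named by mouse; lines mark group means. Ckm and Ampd3 lie higher in all border zone libraries, Ak3 and Ak4 lower, and the other 4 genes overlap; scaled by total reads, Ckm overlaps as well and the change of Ampd3 is -0.32.

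Ckm, the cytosolic muscle creatine kinase that sits at the sarcomere and regenerates ATP for myosin, lies on mouse chromosome 7 (GRCm38, 19404776 to 19422841, plus strand). It had 2818, 1355 and 1366 normalized reads in the border zone of mice 32, 34 and 40, against 559 and 476 in remote mice 40 and 43. The lowest border zone library was thus well above the higher remote one, and mouse 32 carried the highest value of all. The border zone mean was 1846 ± 842 (SD, n = 3), against a remote mean of 517 ± 58.5 (SD, n = 2), a ratio of 3.57. On the log2(value + 1) scale the change was 1.75 ± 0.50 (SE; 95% interval 0.65 to 2.85; limma adjusted p = 0.144), larger than that of 89.9% of the tested genes. The authors' deposited table gave log2 1.84 with an adjusted p of 0.0564, just outside the threshold. Within mouse 40, the border zone library stood 1.29 above the remote one on the log2(value + 1) scale.

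The scaling matters for Ckm. In CPM, which depends on the library total and not on the authors' size factors, Ckm stood at 71.1, 52.3 and 93.2 in border zone mice 32, 34 and 40, against 55.1 and 57.5 in remote mice 40 and 43. On that scale the regions overlapped through mouse 34, and the change was 0.32 on the log2 scale. All tested genes shifted with it, their median lying at -1.59, so Ckm remained 1.91 above the median gene, against 1.96 with the authors' size factors. An antisense gene, A930016O22Rik, lies within the Ckm locus; it had 57.1, 18.5 and 36.0 normalized reads in the border zone libraries and 37.0 and 51.9 in the remote libraries, so those regions overlapped.

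Ckmt2, the sarcomeric mitochondrial creatine kinase that loads phosphocreatine in the space between the mitochondrial membranes, is on chromosome 13 (91853387 to 91876885, minus strand). Its regions overlapped. Its values were 556, 746 and 1302 normalized reads in the border zone of mice 32, 34 and 40, against 852 and 1271 in remote mice 40 and 43. Mice 32 and 34 lay under both remote libraries, and the border zone library of mouse 40 lay above both. The log2 change was -0.35 ± 0.52 (95% interval -1.50 to 0.79; limma adjusted p = 0.738), and within mouse 40 it was 0.61, in the opposite direction. The interval leaves room for a change of more than 1 log2 unit downward.

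The proximal promoters of these partners are shown because both genes encode the same reaction, and the regions were apart for Ckm and overlapped for Ckmt2. They are the 250 bases before the RefSeq start site (GRCm38.p6), read 5′ to 3′, for Ckm at chr7:19410844-19411093 (plus strand, inside the longer GENCODE gene span) and for Ckmt2 at chr13:91876886-91877135 (minus strand). Capitals mark matches on either strand to the E-box CANNTG, bound by myogenic and other helix-loop-helix factors, or to the hypoxia response core (ACGTG or GCGTG).
Ckm: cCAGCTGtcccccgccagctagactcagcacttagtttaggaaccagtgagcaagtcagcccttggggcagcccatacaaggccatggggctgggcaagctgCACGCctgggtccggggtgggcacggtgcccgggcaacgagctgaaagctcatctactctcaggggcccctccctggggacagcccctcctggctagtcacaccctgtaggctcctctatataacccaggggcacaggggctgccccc
Ckmt2: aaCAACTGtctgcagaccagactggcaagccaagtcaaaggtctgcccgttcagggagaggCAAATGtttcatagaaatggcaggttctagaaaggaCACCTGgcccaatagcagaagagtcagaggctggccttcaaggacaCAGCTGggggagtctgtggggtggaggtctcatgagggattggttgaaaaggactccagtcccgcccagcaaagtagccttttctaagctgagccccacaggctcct
The Ckmt2 window held 4 E-box matches, starting 248, 189, 153 and 107 bases before the start site. The Ckm window held 1 E-box match, 249 bases before the start, and 1 match to the hypoxia core, 148 bases before it. Among all 32841 promoter windows of that length, 66.2% held an E-box match and 38.6% a hypoxia core. No letters of the MEF2, CArG or estrogen-related receptor (TNAAGGTCA) motifs were found in either window; 2.92%, 1.47% and 1.14% of all windows held those.

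Ckb, the cytosolic brain-type creatine kinase, which is prominent in the fetal heart and in non-muscle cells, lies on chromosome 12 (111669361 to 111672338, minus strand) and was scarce. It had 4, 52 and 7 reads in border zone mice 32, 34 and 40, against 64 and 14 reads in remote mice 40 and 43. In normalized reads this was 6.34, 64.0 and 5.48 in the border zone libraries, against 48.3 and 10.2 in the remote libraries. A single library of each region, border zone mouse 34 and remote mouse 40, held most of its reads. The log2 change was -0.69 ± 1.46 (95% interval -3.88 to 2.49, limma adjusted p = 0.819), so no direction was detectable in so few and uneven reads. Per kilobase, Ckb stood at 0.00417, 0.0876 and 0.00744 times Ckm in border zone mice 32, 34 and 40, against 0.160 and 0.0399 times in remote mice 40 and 43. A processed pseudogene of Ckb, Gm12892, whose transcript aligns to it at 96.8% identity over 1149 bases, had at most 4.92 normalized reads in any library.

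Markers of other cell types that such a sort could hold are given beside these low values, in normalized reads summed over each list. Endothelial markers (5 of 6 tested) summed to 189 to 580 normalized reads in the border zone and 246 to 338 in remote muscle, with border zone mouse 40 highest. Smooth muscle and pericyte markers (6 of 6) summed to 5756 to 12434 in the border zone and 807 to 2151 in remote muscle, most of the border zone sum coming from Cspg4. Neuronal and Schwann cell markers (2 of 6 tested) summed to 124 to 313 in the border zone and 43.0 to 56.3 in remote muscle, with the neuronal marker Rbfox3 at 0 in 4 libraries. Fibroblast markers (6 of 6) summed to 3382 to 5027 in the border zone and 1937 to 2748 in remote muscle. Macrophage markers (4 of 6 tested) summed to 79.2 to 196 in the border zone and 205 to 263 in remote muscle. Lymphocyte markers (3 of 6 tested, with Cd3g at 0 in every library) summed to 43.8 to 139 in the border zone and 32.5 to 38.0 in remote muscle. In CPM the fibroblast sum was lower in every border zone library, at 118 to 231, against 234 and 271 in remote muscle, and the macrophage sum likewise, at 1.999 to 13.4 in the border zone against 20.2 and 31.8 in remote muscle. With total-count scaling 12695 of all 14989 tested genes lay below 0, so a lower value in CPM says little by itself. With the authors' size factors, the median change relative to the median gene was 0.63 for the fibroblast list and -0.54 for the macrophage list. The endothelial, lymphocyte and neuronal sums overlapped in CPM, and the smooth muscle sum stayed higher in the border zone, at 314 to 398 against 97.5 and 212 in remote muscle. That difference came from Cspg4, at 284, 362 and 361 CPM in border zone mice 32, 34 and 40, against 172 and 36.2 in remote mice 40 and 43. Of the other smooth muscle markers, Acta2 and Rgs5 were lower in every border zone library in CPM, and Myh11, Tagln and Pdgfrb overlapped. The skeletal muscle list (3 of 6 tested), from a tissue rich in Ckm, summed to 3206 to 10457 in the border zone and 788 to 1911 in remote muscle. Most of its border zone sum was Acta1, which cardiomyocytes also express. The fast myosin heavy chain Myh4 had 1024, 708 and 389 normalized reads in the border zone of mice 32, 34 and 40, against 443 and 254 in remote mice 40 and 43. Myh1, another fast heavy chain, had 472, 364 and 279 in the border zone libraries, against 383 and 227 in the remote libraries. The regions overlapped for both, and the fast troponins Tnni2 and Tnnt3 and the light chain Mylpf reached at most 11.1. The cardiomyocyte list summed to 1832050 to 6292370 in the border zone and 990896 to 1468210 in remote muscle. Most of that sum was Ttn in every library. Of the cardiomyocyte markers, Tnnt2, Tnni3, Ryr2, Actn2 and Ttn lay above the remote level in every border zone library, Pln lay below it, and Myh6 and Myl2 overlapped. With the authors' size factors the cardiomyocyte, skeletal muscle and smooth muscle sums were thus higher in every border zone library and highest in mouse 32, as Ckm was. In CPM the cardiomyocyte sums overlapped, as given above, and so did the skeletal muscle sums, at 264, 184 and 219 in border zone mice 32, 34 and 40, against 188 and 95.2 in remote mice 40 and 43. Ckm was then highest in border zone mouse 40, and the smooth muscle sum in border zone mouse 34. The part of these lists in the values of the shuttle genes was not tested.

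Slc6a8, the plasma membrane creatine transporter on which the heart depends because it makes little creatine itself, lies on chromosome X (73673150 to 73682502, plus strand). Its values overlapped between regions. It had 1607, 1656 and 2434 normalized reads in the border zone of mice 32, 34 and 40, against 1907 and 2394 in remote mice 40 and 43. Border zone mouse 40 again lay above both remote libraries, while mice 32 and 34 lay below both, the arrangement also seen for Ckmt2. The log2 change was -0.20 ± 0.45 (95% interval -1.18 to 0.79; limma adjusted p = 0.835), which lay 0.01 from the median of all tested genes.

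**Figure D2:**
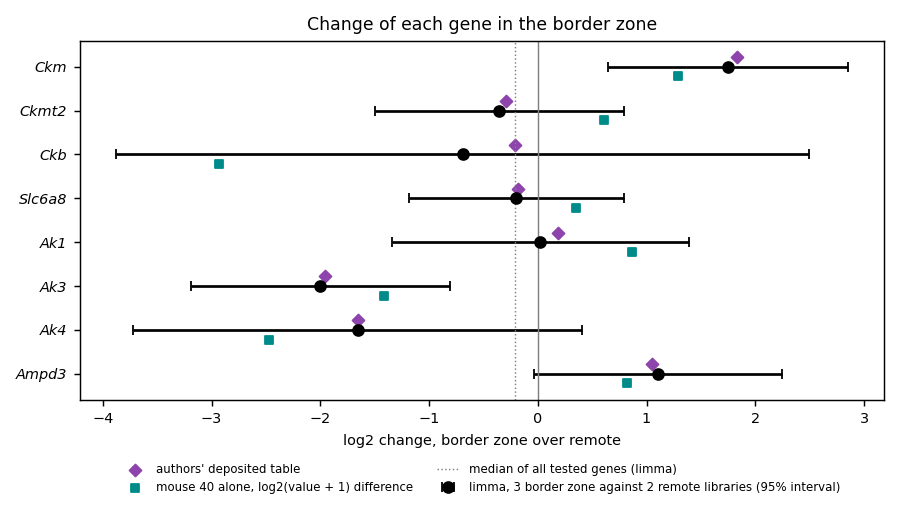
Log2 change of each gene, border zone over remote: limma estimate with 95% interval (circles), the authors' deposited table (diamonds) and mouse 40 alone (squares); the dotted line is the median of all tested genes, -0.21. The intervals of Ckm (0.65 to 2.85) and Ak3 (-3.19 to -0.81) lie clear of 0, and those of the other 6 genes include it.

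Ak3, the GTP:AMP phosphotransferase of the mitochondrial matrix, is on chromosome 19 (29020833 to 29047961, minus strand). It was the member that the authors' deposited table called, lower in the border zone (log2 -1.96, adjusted p = 0.0319). Its values were 168, 181 and 295 normalized reads in the border zone of mice 32, 34 and 40, against 788 and 883 in remote mice 40 and 43. The highest border zone library lay far below the lower remote one, and the regions were far apart relative to the spread within them. The border zone mean was 215 ± 69.9 (SD, n = 3), against a remote mean of 836 ± 67.1 (SD, n = 2), a ratio of 0.257. The limma log2 change was -2.0003 ± 0.55 (95% interval -3.19 to -0.81; limma adjusted p = 0.140). Within mouse 40 the difference was -1.41, and no alternative turned the sign of the Ak3 change. Since the regions did not overlap, leaving out libraries could not turn that sign by limma.

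The Ak3 call by DESeq2 changed when single libraries were left out. On the recovered reads DESeq2 gave an adjusted p of 0.0319 with all 5 libraries and 0.00295 without border zone mouse 40. It gave an adjusted p of 0.0914 without border zone mouse 32, 0.160 without border zone mouse 34, 0.218 without remote mouse 40 and 0.713 without remote mouse 43. Without either remote library that arm holds 1 library, assumed to vary as the border zone libraries do, here and for the other genes below. The size of the change varied less, between -1.77 and -2.27 on the log2 scale in these DESeq2 fits.

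Ak3 shares its locus with other genes, and its value has to be read beside theirs. The 3′ part of Ak3 overlaps Cdc37l1, a cochaperone gene on the opposite strand (chromosome 19, 28990352 to 29026681), over 5849 bases of the genome, with up to 431 bases of exon in common. Cdc37l1 had 222, 205 and 397 normalized reads in the border zone of mice 32, 34 and 40, against 785 and 1759 in remote mice 40 and 43. For it the authors' deposited table listed a log2 change of -2.21 (adjusted p = 0.0299), a call on the lower side that limma did not make (adjusted p = 0.140). DESeq2 gave Cdc37l1 an adjusted p of 0.0695 without border zone mouse 32, 0.134 without border zone mouse 34, 0.0642 without remote mouse 40 and 0.852 without remote mouse 43, where its log2 change was -1.51. It gave 0.00140 without border zone mouse 40. An antisense gene over the Ak3 start, 1700018L02Rik, had 3.17, 17.2 and 4.69 normalized reads in the border zone libraries and 100 and 29.2 in the remote libraries. Whether the reads were counted by strand is not given in the sources used here, so reads of these overlapping genes cannot be told apart, and how much they share in the Ak3 value was not tested.

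Ak4, a mitochondrial matrix protein related to Ak3 and known as a hypoxia-inducible gene in human cells, lies on chromosome 4 (101419277 to 101466995, plus strand). It had 38.0, 30.8 and 18.0 normalized reads in the border zone of mice 32, 34 and 40, against 104 and 76.7 in remote mice 40 and 43. All border zone libraries lay well below both remote libraries, with mouse 40 the lowest, and the regions did not overlap. The border zone mean was 28.9 ± 10.1 (SD, n = 3), against a remote mean of 90.5 ± 19.4 (SD, n = 2), a ratio of 0.320. The log2 change was -1.66 ± 0.95 (95% interval -3.72 to 0.41; limma adjusted p = 0.368), and the authors' deposited table gave log2 -1.66 with an adjusted p of 0.214. Within mouse 40 the difference was -2.47, the border zone library of that mouse having 23 reads of Ak4 and the remote library 138 reads.

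The processed pseudogene Ak3l2-ps is a near copy of Ak4, its transcript aligning at 99.6% identity over 672 bases. It had 28.5, 24.6 and 12.5 normalized reads in the border zone libraries, against 33.2 and 9.50 in the remote libraries. Reads could be split between the copy and Ak4, so the low values of Ak4 are uncertain.

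The promoters of these matrix adenylate kinases are shown since they were the members with lower values in the border zone. The windows are chr19:29047962-29048211 (minus strand) for Ak3 and chr4:101419039-101419288 (plus strand) for Ak4, the most upstream of its 4 RefSeq start sites. Motifs and capitals are as for the creatine kinases.
Ak3: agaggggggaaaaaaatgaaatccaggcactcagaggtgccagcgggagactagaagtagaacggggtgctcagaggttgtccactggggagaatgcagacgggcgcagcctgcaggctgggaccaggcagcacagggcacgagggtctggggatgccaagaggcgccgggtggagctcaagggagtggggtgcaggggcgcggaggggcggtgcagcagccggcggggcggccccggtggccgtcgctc
Ak4: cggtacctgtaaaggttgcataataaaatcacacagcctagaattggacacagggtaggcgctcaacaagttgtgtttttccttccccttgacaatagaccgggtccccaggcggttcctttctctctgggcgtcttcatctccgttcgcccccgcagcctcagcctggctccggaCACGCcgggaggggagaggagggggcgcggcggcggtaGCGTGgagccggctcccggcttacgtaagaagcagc
The Ak3 window held no match to any of the motifs searched. The Ak4 window held 2 matches to the hypoxia core, 74 and 36 bases before the start site, and no E-box. Matches are a description of the letters and say nothing about binding in these nuclei.

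Ak1, the cytosolic adenylate kinase of muscle that pairs spent ADP into ATP and AMP, is on chromosome 2 (32621758 to 32635058, plus strand). Its values were 365, 167 and 550 normalized reads in the border zone of mice 32, 34 and 40, against 302 and 333 in remote mice 40 and 43. The border zone libraries thus spread around the tightly placed remote libraries, with mouse 34 under them and mice 32 and 40 above. The log2 change was 0.02 ± 0.62 (95% interval -1.34 to 1.39; limma adjusted p = 0.986), and the border zone mean was 361 ± 191 (SD, n = 3), against a remote mean of 318 ± 22.2 (SD, n = 2).

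Ampd3, an AMP deaminase that turns AMP into IMP and so removes adenylate from the pool, is on chromosome 7 (110768206 to 110812405, plus strand). It is best known as the erythrocyte isoform and is also expressed in the heart. It had 1385, 844 and 1389 normalized reads in the border zone of mice 32, 34 and 40, against 784 and 379 in remote mice 40 and 43. The border zone libraries all lay above the remote ones, but border zone mouse 34 exceeded remote mouse 40 by little. The border zone mean was 1206 ± 313 (SD, n = 3), against a remote mean of 581 ± 287 (SD, n = 2), a ratio of 2.07. The log2 change was 1.11 ± 0.52 (95% interval -0.03 to 2.25; limma adjusted p = 0.290), the authors' deposited table gave log2 1.05 with an adjusted p of 0.333, and the difference within mouse 40 was 0.82. The size depended on the remote libraries, being 1.63 without remote mouse 40 and 0.58 without remote mouse 43 (limma). With total-count scaling the change of Ampd3 was -0.32, though it remained 1.27 above the median gene. With the authors' size factors it lay 1.32 above the median of all tested genes. Above the median of genes with a mean of at least 100 it lay by 0.86. Rnf141, which overlaps the 3′ end of the Ampd3 locus on the other strand, had 163, 46.8 and 107 normalized reads in the border zone libraries and 268 and 232 in the remote libraries, the opposite arrangement to that of Ampd3; whether reads there were assigned by strand is likewise not stated.

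Ratios between genes of a library do not depend on its size factor, and they set the members against each other directly. Per kilobase of longest transcript, Ckm stood at 2.75, 0.985 and 0.569 times Ckmt2 in border zone mice 32, 34 and 40 (95% counting intervals 2.45 to 3.09, 0.891 to 1.09 and 0.531 to 0.609). In remote mice 40 and 43 the ratio was 0.355 and 0.203 (0.323 to 0.390 and 0.185 to 0.222). In reads per kilobase, Ckm was therefore higher relative to Ckmt2 in all border zone libraries than in all remote libraries. The intervals of the border zone libraries did not overlap each other either, but they take each read as independent, which amplified reads are not. Against the creatine transporter, Ckm stood at 2.53, 1.18 and 0.811 times Slc6a8 in border zone mice 32, 34 and 40, and at 0.424 and 0.287 times in remote mice 40 and 43. These ratios carry no test, since the genes were paired with their values known. With the authors' size factors Ckm separated the regions by itself, while Ckmt2 and Slc6a8 overlapped. The ratios are thus not a result apart from the placing of Ckm. How many other gene pairs separate the regions was not counted.

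The ratio of Ak1 to Ak3 also separated the regions, as Ak3 did by itself, while Ak1 overlapped. Ak1 stood at 2.92, 1.25 and 2.51 times Ak3 per kilobase in border zone mice 32, 34 and 40 (95% counting intervals 2.31 to 3.72, 0.980 to 1.58 and 2.21 to 2.85). In remote mice 40 and 43 it stood at 0.516 and 0.509 times Ak3 (0.459 to 0.580 and 0.456 to 0.567). The cytosolic enzyme thus exceeded the matrix enzyme in reads per kilobase in border zone mice 32 and 40, and was exceeded by it in the remote libraries, while the interval of border zone mouse 34 included 1. The ratio of the matrix enzymes to each other did not separate the regions, Ak3 standing at 6.86, 9.13 and 25.4 times Ak4 in the border zone and at 11.7 and 17.9 times in remote muscle.

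**Figure D3:**
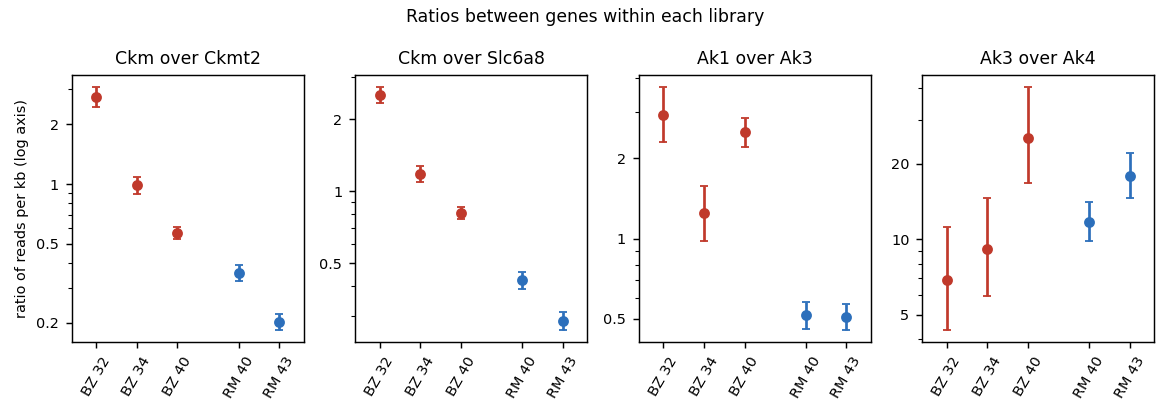
Ratios of reads per kilobase between gene pairs within each library (log axis), with 95% counting intervals; border zone (BZ) in red, remote (RM) in blue, named by mouse. Ckm over Ckmt2, Ckm over Slc6a8 and Ak1 over Ak3 are higher in every border zone library than in either remote library, and Ak3 over Ak4 overlaps. With the authors' size factors Ckm and Ak3 separate the regions by themselves, and the share of other gene pairs that do so was not counted.

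The members also stood in a different order in each region. In the border zone the means in normalized reads per kilobase were 673 ± 307 for Ckm, 584 ± 261 for Ckmt2, 479 ± 117 for Slc6a8, 295 ± 76.5 for Ampd3, 173 ± 91.8 for Ak1, 76.4 ± 24.9 for Ak3, 17.1 ± 22.7 for Ckb and 6.64 ± 2.33 for Ak4 (SD, n = 3). In remote muscle they were 714 ± 199 for Ckmt2, 542 ± 86.9 for Slc6a8, 297 ± 23.9 for Ak3, 189 ± 21.4 for Ckm, 152 ± 10.6 for Ak1, 142 ± 70.1 for Ampd3, 20.7 ± 4.45 for Ak4 and 19.8 ± 18.2 for Ckb (SD, n = 2). Taking the larger SD of each neighbouring pair as the spread, Ckm, Ckmt2 and Slc6a8 at the head of the border zone order did not differ beyond it, nor did Ckb and Ak4 at its foot. In remote muscle Ckmt2 and Slc6a8, Ak1 and Ampd3, and Ak4 and Ckb did not differ beyond it, while Ckm came after Ckmt2, Slc6a8 and Ak3. The length of Ckm was taken as 2742 bases, its longest transcript. A shorter coding transcript has 1235 bases, and with it Ckm would stand higher in both regions. Ckm would then come before Ak3 in remote muscle and stand clear of Ckmt2 in the border zone, so its place in these orders depends on the length chosen.

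Other genes of the pathway showed where the 8 members sit. Of 42 listed genes of creatine synthesis, nucleotide kinases, AMP removal, mitochondrial exchange and AMP-activated protein kinase, 32 had enough reads to be tested. Of these, 12 had positive and 20 negative log2 changes, against 45.0% and 55.0% of all tested genes. Their median was -0.69, against -0.21 for all tested genes. By limma 0 of the 32 passed, with 5 under an unadjusted p of 0.05, where 18.1% of all tested genes lay. By edgeR 0 passed. The authors' deposited table called 1 gene higher and 1 lower, where 3.46% and 1.98% of all its genes were called. The groups did not overlap for 14 of the 32, of which 5 lay above and 9 below the remote level. Of all tested genes 39.2% did not overlap, 18.9% lying above and 20.3% below.

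The gene called higher was Adssl1, the muscle adenylosuccinate synthase that starts the way back from IMP to AMP in the purine nucleotide cycle. It had 951, 1382 and 1028 normalized reads in the border zone of mice 32, 34 and 40, against 388 and 287 in remote mice 40 and 43. Every border zone library lay far above both remote libraries, but in CPM the regions overlapped, with 24.0, 53.4 and 70.2 in the border zone and 38.2 and 34.7 in remote muscle. The authors' deposited table gave log2 1.73 (adjusted p = 0.0480), and limma gave 1.72 ± 0.49 (adjusted p = 0.143). That call was lost in DESeq2 without border zone mouse 32 or 34 or either remote library (adjusted p = 0.0631, 0.244, 0.194 and 0.788, in the order border zone 32, border zone 34, remote 40, remote 43). Its non-muscle relative Adss had 14.3, 81.2 and 52.4 normalized reads in the border zone and 97.4 and 211 in remote muscle, the opposite arrangement (limma log2 -1.83, adjusted p = 0.330); it too is named after its values were seen. Ampd1, the skeletal muscle isoform of AMP deaminase, named here after its values were seen, was at 0 in 4 libraries and had 1.23 normalized reads, a single read, in border zone mouse 34.

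The mitochondrial exchange genes, which carry ATP, ADP and phosphate through the inner and outer membranes, were all on the lower side. All 6 tested members had negative log2 changes (55.0% of all genes did), with a median of -1.71, and for 5 of the 6 the border zone libraries lay below both remote libraries (20.3% of all genes). All 6 also had negative changes by edgeR and with total-count or quantile scaling. Of all 14989 tested genes 7527, 12695 and 7748 lay below 0 in those fits, so the sign under total-count scaling says little. Relative to the median gene, the median of this list was -1.50 with the authors' size factors and -1.54 with total-count scaling. Vdac3, an outer membrane channel, was the one called, at log2 -3.73 with an adjusted p of 0.0161 as the authors' deposited table has it (limma adjusted p = 0.202). It had 3.17, 18.5 and 10.95 normalized reads in the border zone of mice 32, 34 and 40, against 49.8 and 240 in remote mice 40 and 43. DESeq2 still called Vdac3 without border zone mouse 32, 34 or 40 (adjusted p = 0.0411, 0.0190 and 0.00848). Its log2 change was -4.46 without remote mouse 40 and -2.19 without remote mouse 43, which held the higher remote value. Those last fits leave 1 remote library, so how far the call holds without either cannot be judged. Within mouse 40 the difference was -2.09.

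The remaining lists held no gene called in the authors' deposited table. Of the other adenylate kinases, Ak5 had at most 7.38 normalized reads in the border zone, against 40.0 and 11.7 in remote mice 40 and 43 (limma adjusted p = 0.352). Among the genes that degrade AMP and adenosine (2 of 5 above 0, and 1 with total-count scaling), Nt5e and Nt5c2 had log2 changes of 0.67 ± 0.53 and -0.62 ± 0.71 (limma adjusted p = 0.508 and 0.655). Nucleoside diphosphate kinases (0 of 3 above 0, but 1 by edgeR and 2 with quantile normalization) included Nme1 at -0.94 ± 0.93 and Nme6 at -0.15 ± 1.98, the second with 762 normalized reads in border zone mouse 32 and at most 64.3 in any other library. Creatine synthesis genes were scarce: Gamt had at most 44.4 normalized reads in the border zone and 41.7 in remote muscle, and Gatm, at most 25.8 and 12.4, was too low to test. The AMP-activated protein kinase list, which senses the AMP that these enzymes set, had 7 of 10 members above 0 (45.0% of all genes) and a median of 0.15. With total-count scaling 0 of 10 lay above 0, where 2294 of all 14989 tested genes did. Relative to the median gene, the list's median was 0.36 with the authors' size factors and 0.32 with total-count scaling. Prkaa2 stood at -0.97 ± 0.53 and Prkab2 at 0.18 ± 0.48 (limma adjusted p = 0.347 and 0.860).

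**Figure D4:**
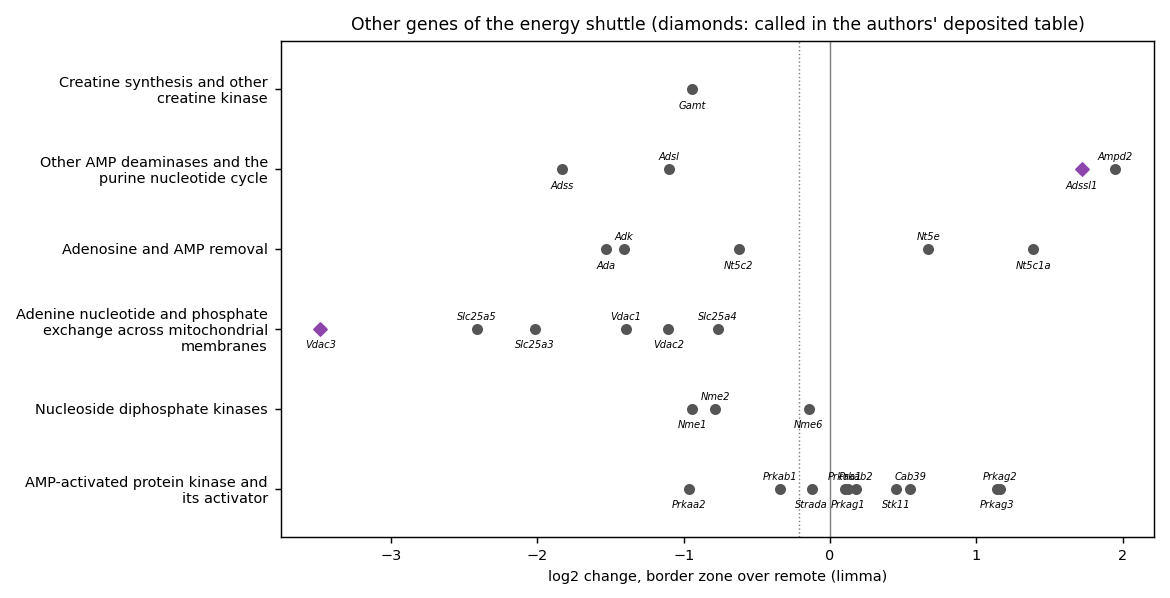
Limma log2 change, border zone over remote, of tested other genes of the energy shuttle, for 6 of the 7 lists (the adenylate kinases are not drawn); the dotted line marks the median of all tested genes, and diamonds mark Adssl1 and Vdac3, called in the authors' deposited table. All 6 mitochondrial exchange genes lie left of 0 (55.0% of all tested genes do), while 7 of 10 AMP-activated protein kinase genes lie right of it (45.0% of all). With total-count scaling 0 of these 10 lie right of 0, where 2294 of all 14989 tested genes do.

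Genes with the most similar profile over the 5 libraries were found by the root mean square difference between centred log2(value + 1) values, over the 6441 named genes whose mean reached 100. For Ckm these were the ubiquitin ligase genes Rnf220 and Rnf19b, at differences of 0.10 and 0.12 log2 units. For Ckmt2 they were Pgm2 (0.11) and Atxn7l3b (0.11), for Slc6a8 Traf6 (0.05) and Sf3b3 (0.07), and for Ak1 Ap5s1 (0.08) and Cyfip2 (0.10). Ak3 was closest to Gatb (0.08), a subunit of the mitochondrial glutamyl-tRNA amidotransferase, and Bves (0.14), a cyclic AMP-binding membrane protein of muscle. Ak4 was closest to Txn2 (0.15), the mitochondrial thioredoxin, and Ubap1 (0.24), and Ampd3 to Rnf213 (0.06) and Tacc1 (0.09). Ckb had no close match, its nearest genes Disp1 and Ppp1r16a lying at 0.58 and 0.64. With 5 libraries and so many genes such matches are a description of these libraries only.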

How the data were processed

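Nuclear RNA-seq was available for 5 libraries. The deposited per-library table holds a signal, the gene's reads over the library's size factor; every value above 0 was a whole multiple (100%, within 0.01) of what a read is worth in that library, so reads were recovered. STAR, DESeq2 and mm10 are named per the submitters' processing notes; no source used here gives the counting tool, its strand setting or the annotation. The authors' deposited comparison gives log2 fold changes, p-values and adjusted p-values.

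Genes with a mean of at least 10 normalized reads (14989) were tested with limma 3.58.1 (R 4.3.3), with a mean-variance trend, on log2(value + 1), two-sided, Benjamini-Hochberg adjusted over all of them at 0.05. This scale can make changes of low genes smaller or larger. Ckb stood at -0.69 on it, against -0.28 by edgeR and -0.21 by DESeq2. Ak4 stood at -1.66, against -1.73 by edgeR and -1.66 by DESeq2. edgeR 4.0.16 and DESeq2 1.42.0 ran on recovered reads. With nothing stating how libraries of an animal relate, p-values measure the spread between these libraries, with mouse 40's pair taken as independent. Scripts were tested on simulated data. Positions and transcripts are from GENCODE M21 (GRCm38); overlapping sequences were found with BLAST+ at 95% identity over at least 200 bases. Promoters are RefSeq's (GRCm38.p6), matched for 7 of 8 genes, Slc6a8 not among them.

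Members and lists were chosen with earlier results of these data known. Named pathway genes are those called in the authors' deposited table or by a test, and otherwise the 2 of each list with the highest mean; Adss and Ampd1 were added after their values were seen. A pathway gene that this rule names is not reported here.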

Additional observations from a re-analysis of the deposited data

How the results depend on the processing

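No paired analysis was possible because only mouse 40 gave both regions. The limma fit called 0 genes, 0 of the 8 members and 0 of the other pathway genes. DESeq2 called 902, 1 and 2; total-count scaling and quantile normalization each called 1 gene in all, and a minimum mean of 100 called 109, with no value for Ckb and Ak4, which are too low. Leaving out 1 library gave 0 to 235 genes by limma and 35 to 2801 by DESeq2 (524 and 458 without border zone mice 32 and 34, 526 and 35 without remote mice 40 and 43; these DESeq2 fits were chosen after seeing the data), with 0 to 2 members and 0 to 5 pathway genes; the 235 and the 2801 came without border zone mouse 40, where DESeq2 called Ckm (adjusted p = 0.0126) and Ak3 (adjusted p = 0.00295). Leaving out border zone mice 32 and 34 together, DESeq2 called 328 genes and 1 pathway gene; the border zone arm is then 1 library, from mouse 40, which also gave a remote library, and it is assumed to vary as the remote pair does. Leaving out a remote library likewise leaves 1 in that arm.

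Ckm kept its sign in all 20 alternatives (0.32 to 2.03), as did Ak3 in 20 (-3.43 to -1.46) and Ak4 in 19 (-3.07 to -1.36). Their regions did not overlap with the authors' size factors, so leaving out libraries could not turn the limma sign. The pseudocount, the filter and the trend could not turn it either. Those alternatives are therefore no test of the sign of these genes. Their adjusted p ran from 0.0126 to 0.973, 0.00295 to 0.973 and 0.123 to 0.973. Total-count scaling moved the median of all genes by -1.38 and turned Ampd3 to -0.32 and Ak1 to -1.40; quantile normalization moved it by 0.15 and turned Ak1 to -0.18 and Ckb to 0.084. Leaving out border zone mice 32 and 34 turned Ckmt2 to 0.32 and Slc6a8 to 0.19 by limma and to 0.34 and 0.23 by DESeq2. Leaving out 1 library changed further signs. By limma Ckb ran from -1.77 to 0.37 and Ak1 from -0.36 to 0.50. By DESeq2 Ckmt2 ran from -0.72 to 0.034 (without remote mouse 43), Ckb from -2.31 to 1.29 (0.26 without border zone mouse 40) and Ak1 from -0.27 (without border zone mouse 40) to 0.53. The cause of these shifts was not tested. Few reads limit Ckb (4 reads in border zone mouse 32) and Ak4 (23 in border zone mouse 40) most.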
